A study of Mus musculus with 8 samples.

Results

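The genes described here are 10 members of the activator protein 1 (AP-1) family: Fos, Fosb, Fosl1 and Fosl2 of the Fos group, Jun, Junb and Jund of the Jun group, and Batf, Batf3 and Atf3. They were chosen by name, and every probe set whose annotation gave exactly 1 of these symbols was taken, which gave 12 of the 22626 non-control probe sets, or 10 of 12393 genes with a probe set of their own. Jun and Fosl1 had 2 probe sets each and the other genes 1. Of the 12 probe sets 11 passed the filter on low values, a mean over the 8 arrays of at least 6.87; a second Fosl1 probe set did not and was not tested.

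AP-1 proteins bind DNA as dimers through a basic leucine zipper. Fos proteins pair with Jun proteins and not with themselves, Jun proteins can also pair with each other, and Batf proteins lack a transactivation domain and pair with Jun proteins, in T cells often beside IRF4 on composite sites. In T cells, receptor and costimulatory signals raise Fos and Jun through MAP kinases within minutes to hours, and AP-1 then acts with NFAT at cytokine genes such as Il2. Atf3 is a stress-induced member of the wider family.

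The samples were activated CD8 cytotoxic T cells of OT-1 mice, whose CD8 T cells carry a transgenic receptor for an ovalbumin peptide. T cells from each of 4 mice (A to D) were divided between ID8 mouse ovarian cancer cells loaded with the peptide that either overexpressed PD-L1, which binds the inhibitory receptor PD-1 on T cells, or were depleted of it. The incubation lasted 4 h at 30 T cells per target cell, and the T cells were recovered magnetically; this gave 4 arrays per group. There were no T cells without targets and no unmodified ID8 cells among the samples, both groups had seen peptide, and the ages of the mice and the way PD-L1 was altered were not given in the sources used here. Values are log2 expression values per probe set, and their highest was 15.24; the number of arrays limits the precision.

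The CD8 T cell markers Cd3d, Cd3e, Cd3g, Cd247, Cd8a and Cd8b1 passed the filter in 6 of 6 cases, and their mean lay between 12.29 and 12.47 on the 8 arrays. It was lowest in mouse A, at 12.33 and 12.29, against 12.44 to 12.47 on the other arrays. Of the 6 markers 4 were called lower in mouse A than in the mean of the other mice, beside 11.9% of all tested genes. Of 7 B cell markers on the arrays only Ighm passed, and of 8 macrophage and dendritic cell markers only Csf1r and Cd68. Among 14 markers of the ID8 cells 9 passed, and their mean ran from 7.09 to 8.13 with PD-L1-overexpressing and from 7.11 to 8.02 with PD-L1-depleted targets. Overexpressing minus depleted, the mean of these 14 was 0.55 to 0.61 in mice A, C and D and -0.94 in mouse B, so the arrays of mouse B stood apart in their target cell signal. Because these are bulk samples, fewer cells of a type and less RNA per cell cannot be told apart.

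Because Fos, Fosb, Jun and Batf were the members called higher in mouse B, the 250 bases upstream of their annotated starts are shown, from RefSeq on build GRCm38.p6, written 5′ to 3′ on the gene's strand. Capitals mark matches to the searched motifs, which were chosen with the sequences in view.
Fos, chr12:85473640-85473889, plus strand: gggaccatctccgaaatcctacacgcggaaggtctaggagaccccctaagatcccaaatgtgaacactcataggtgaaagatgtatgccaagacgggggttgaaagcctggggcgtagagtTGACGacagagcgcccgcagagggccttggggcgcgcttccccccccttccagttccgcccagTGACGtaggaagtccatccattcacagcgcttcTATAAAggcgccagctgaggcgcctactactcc
Fosb, chr7:19310046-19310295, minus strand: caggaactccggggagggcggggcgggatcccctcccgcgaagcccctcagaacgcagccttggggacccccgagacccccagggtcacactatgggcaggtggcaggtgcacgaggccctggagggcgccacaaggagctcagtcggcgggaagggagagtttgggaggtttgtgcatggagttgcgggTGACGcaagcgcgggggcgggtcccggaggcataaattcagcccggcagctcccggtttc
Jun, chr4:95052223-95052472, minus strand: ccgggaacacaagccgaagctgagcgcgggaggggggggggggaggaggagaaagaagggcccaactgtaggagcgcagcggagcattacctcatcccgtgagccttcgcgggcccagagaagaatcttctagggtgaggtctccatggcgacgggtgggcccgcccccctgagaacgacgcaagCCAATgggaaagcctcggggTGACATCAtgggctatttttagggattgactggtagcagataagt
Batf, chr12:85686470-85686719, plus strand: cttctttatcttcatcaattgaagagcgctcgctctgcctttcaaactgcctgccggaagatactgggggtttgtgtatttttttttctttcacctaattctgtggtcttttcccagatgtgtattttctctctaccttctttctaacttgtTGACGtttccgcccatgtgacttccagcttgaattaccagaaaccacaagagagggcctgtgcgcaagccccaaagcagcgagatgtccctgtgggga
Both strands were searched for the short CRE element TGACG, the octamer TGACATCA known from the Jun promoter, the CCAAT box CCAAT, the TATA element TATAAA, the AP-1 site TGANTCA, the full CRE TGACGTCA, which contains the short one, and the CArG box bound by SRF. Positions are those of the first base of the match, counted back from the start. Fos held the short CRE element at -129 and -66 and the TATA element at -33. Fosb held the short CRE element at -60 and Batf at -98. Jun held the octamer at -45 and the CCAAT box at -65. The short CRE element was found in 5 of the 9 members with a promoter entry (Fos, Fosb, Junb, Batf and Atf3) and in 17.8% of 32841 promoter windows of the same length. The CCAAT box stood in 33.9%, the octamer in 2.93% and the TATA element in 12.4% of those windows. The AP-1 site (6.75%), the full CRE (1.55%) and the CArG box (1.47%) had no match in the 9 windows. Sequence outside the 250 bases was not searched, so sites farther upstream would not show. Fosl1 had no entry in the table. A match describes letters in this window and not a bound site.

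The first comparison asked whether AP-1 transcripts depend on the PD-L1 of the target cells the T cells had met. No member passed: blocked by mouse, the limma fit called 0 of the 11 tested probe sets, beside 0 of 13576 over all tested probe sets (0%). With PD-L1-overexpressing targets the mean of 8 of the 11 was lower and that of 3 higher. In at least 3 of 4 mice 6 of the 11 were lower (54.5%), beside 27.7% of all tested probe sets, and 2, Fos and Jun, had an unadjusted p under 0.05, beside 2.96% of all tested probe sets. Every one of the 11 intervals lay inside a 1.5-fold change in either direction. The share of all tested probe sets for which this held was not taken, so it is not a trait shown to be particular to the members.

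Fos, the founding inducible Fos gene, read 10.24, 11.34, 10.25 and 10.05 with PD-L1-overexpressing targets, in the order of mice A to D. With PD-L1-depleted targets it read 10.52, 11.59, 10.42 and 10.03. It was thus lower with PD-L1-overexpressing targets in A, B and C and 0.03 higher in D, and the groups overlapped. The group means were 10.47 ± 0.59 and 10.64 ± 0.67 (SD, n = 4 each). The difference was -0.17 (SE 0.0512, 95% interval -0.29 to -0.05), a 1.12-fold higher level with depleted targets (limma adjusted p = 0.999).

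Fosb, a Fos relative that in neurons also gives the long-lived ΔFosB protein, lay near the filter. It read 6.95, 7.42, 6.93 and 6.78 with PD-L1-overexpressing and 6.92, 8.03, 7.02 and 6.77 with PD-L1-depleted targets in mice A to D. Its difference of -0.17 (SE 0.108) came from mouse B, at -0.61. The other mice lay between -0.09 and 0.04, and without mouse B the difference was -0.02.

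Jun, the main partner of Fos, had 2 probe sets that were alike in mouse A and opposite in mouse B. The set 1417409_at differed by -0.37, -0.25, -0.04 and 0.05 in mice A to D, with a mean of -0.15 (SE 0.0639). The set 1448694_at differed by -0.36, 0.15, -0.05 and -0.04, with a mean of -0.07 (SE 0.0784). Without mouse A the second mean was 0.02, so its direction rested on that animal.

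Fosl2, which encodes the Fos relative Fra-2, was lower with PD-L1-overexpressing targets in 4 of 4 mice, by -0.04, -0.10, -0.31 and -0.04 in A to D (mean -0.12, SE 0.0553). Batf3, known for its role in dendritic cell development and in CD8 memory, was also lower in 4 of 4 mice, though by only -0.05 to -0.01. These were 2 of 11 probe sets (18.2%), beside 4.59% of all tested probe sets that were lower in every mouse. Neither passed (limma adjusted p = 0.999 for both).

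The Jun relatives Junb, which is itself induced by receptor signals, and Jund, the more constantly expressed member, were tightly placed. Junb, at 11.92 ± 0.09 and 11.90 ± 0.10 (SD, n = 4 each), differed by 0.02 (SE 0.0285). Jund, at 11.56 ± 0.06 and 11.59 ± 0.09 (SD, n = 4 each), differed by -0.03 (SE 0.0293). Batf, the T cell partner of Jun and IRF4, differed by -0.01 (SE 0.0409), Atf3 by 0.02 (SE 0.0349) and Fosl1, which encodes Fra-1, by 0.03 (SE 0.0559). The Fosl1 set under the filter, 1417488_at, read 5.77 to 6.29 over the 8 arrays.

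**Figure D1:**
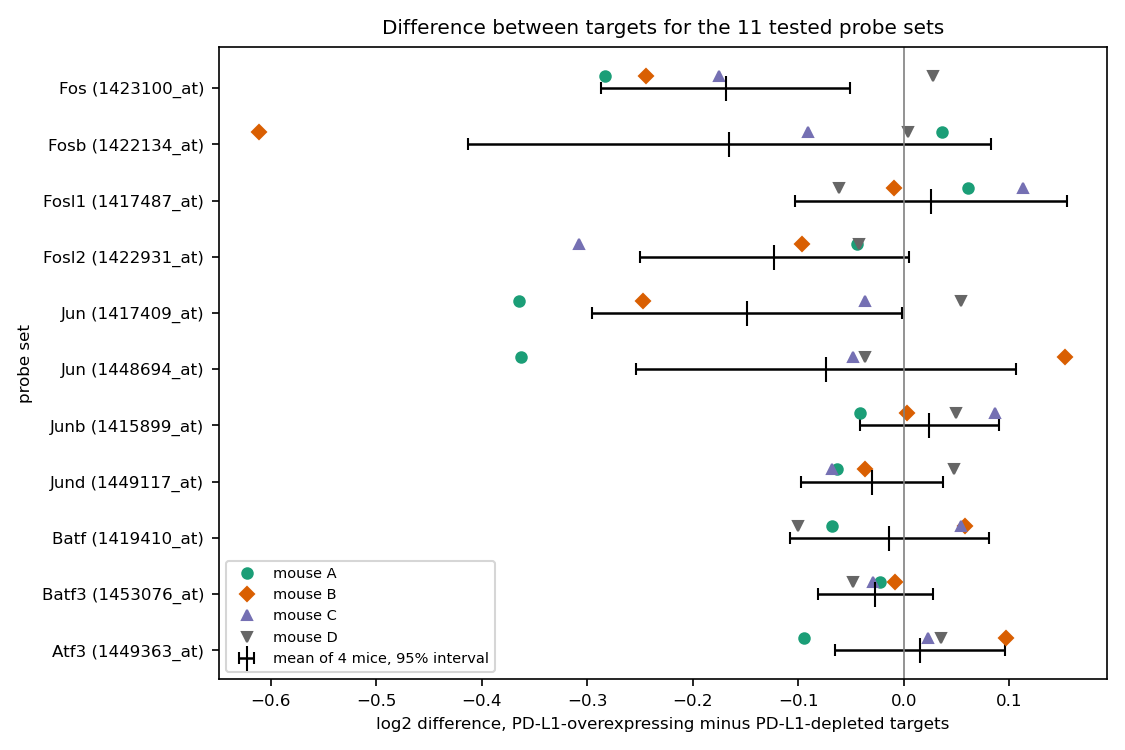
Log2 differences between targets (x axis, overexpressing minus depleted) for the 11 tested probe sets (y axis); coloured symbols are the 4 mice, black bars the fitted mean with its 95% interval. Fosb in mouse B, at -0.61, lies farthest from 0, and the intervals of Fos and of 1 Jun set end just under 0 before adjustment.

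Mouse B carried the opposite target cell signal to the other mice, so each difference was also taken without it. Fos then stood at -0.14, Jun at -0.12 and -0.15 and Fosl2 at -0.13, and 0 of the 11 members passed. Over all probe sets that fit called 268, or 1.97%. Set beside the ID8 marker mean, which was higher with overexpressing targets in A, C and D and lower in B, the Fos difference was -0.28 in A, -0.18 in C, 0.03 in D and -0.24 in B. Whether target cell RNA contributes to any member's value was not tested.

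Differences between animals, each with its 2 arrays and the target as covariate, were larger. Fos, Fosb, Jun and Batf were higher in mouse B than in the mean of the others, Batf3 and Atf3 were higher in mouse A, and Fos was also lower in mouse D. By the moderated F test 8 of the 11 tested probe sets differed between mice (72.7%), beside 23.5% of all 13576. Without mouse B these shares were close to each other, 5 of 11 (45.5%) beside 39.6% of all, so the excess among the members rested largely on that animal. Fos and 1 Jun set had both an F test call and a range over 2-fold between the highest and the lowest mouse. These were 2 of 11 (18.2%), beside 0.877% of all tested probe sets that met both conditions. The spread behind these p-values is that between the 2 arrays of 1 animal, and the labels do not say what differed between animals.

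**Figure D2:**
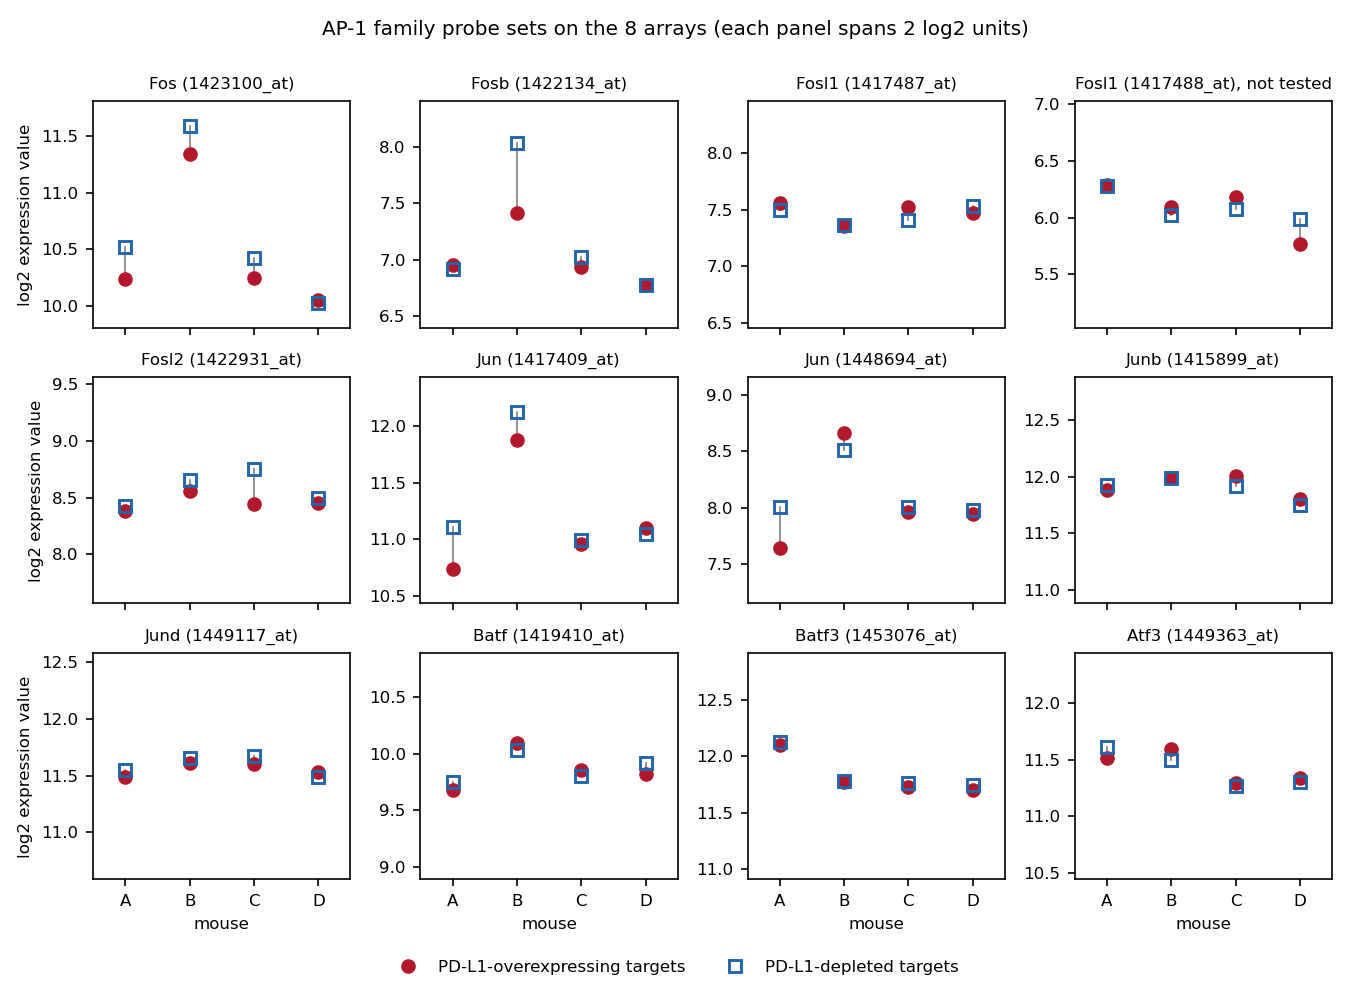
Log2 expression value (y axis) of the 12 probe sets in mice A to D (x axis), with filled circles for PD-L1-overexpressing and open squares for PD-L1-depleted targets; each panel spans 2 log2 units. Both arrays of mouse B lie above the other 6 for Fos, Fosb, both Jun sets and Batf, and both arrays of mouse A do so for Batf3.

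In mouse B 5 of 11 probe sets were called higher than the mean of the others (45.5%), beside 4.95% of all tested probe sets, and 0 were called lower, beside 1.97%. Both arrays of mouse B lay above the other 6 for 5 of 11 probe sets (45.5%), beside 8.19% of all tested probe sets. These were the same 5 that were called higher, so the 2 counts are not independent. Fos was 2.32-fold higher (log2 difference 1.21, SE 0.0591, limma adjusted p = 2.13e-05), with 11.34 and 11.59 in mouse B against 10.03 to 10.52 elsewhere. This was the 20th highest difference of that mouse among 13576. Jun was 2.01-fold higher by 1417409_at (adjusted p = 0.000209) and 1.59-fold by 1448694_at (adjusted p = 0.00541). The first Jun set read 11.88 and 12.13 in mouse B against 10.74 to 11.11 elsewhere, with no overlap. Fosb was 1.77-fold higher (adjusted p = 0.00835), and its 2 arrays of mouse B, 7.42 and 8.03, were themselves far apart.

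Batf was higher in mouse B by 0.26 on the log2 scale (SE 0.0472, adjusted p = 0.0173), at 10.09 and 10.04 against 9.68 to 9.92 elsewhere. Its call was lost without mouse A, where the log2 difference was 0.21. Junb differed by 0.11 (adjusted p = 0.0983), Jund by 0.08 (0.216), Fosl2 by 0.12 (0.296), Atf3 by 0.16 (0.0557) and Fosl1 by -0.14 (0.226) in mouse B, not past the threshold. Batf3 differed by -0.08 (0.115) and was, with Fosl1, 1 of the 2 probe sets with a lower mean in mouse B. Between the highest and lowest mouse, Fos, Fosb and both Jun sets spanned 1.70-fold to 2.69-fold, and the other 7 tested probe sets 1.09-fold to 1.31-fold.

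In mouse D, Fos was lower than in the others by 0.69 on the log2 scale, 1.61-fold (limma adjusted p = 0.000626), the 6th lowest difference of that mouse. It read 10.05 and 10.03 there, just under the 10.24 and 10.25 of mice A and C with overexpressing targets. Without mouse B in the mean of the others Fos still differed by -0.32 (adjusted p = 0.000734). Junb was 1.13-fold lower in mouse D (adjusted p = 0.0213) and Batf3 1.11-fold (adjusted p = 0.0163). Without mouse A neither was past the threshold, Junb at -0.20 (adjusted p = 0.0619) and Batf3 at -0.04 (adjusted p = 0.683). In all 3 of 11 probe sets (27.3%) were called lower in mouse D, beside 2.85% of all, and 0 higher, beside 3.48%.

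Mouse A was highest for Batf3, at 12.10 and 12.12 against 11.70 to 11.78 on the other 6 arrays. This is 1.29-fold above the mean of the others (limma adjusted p = 7.09e-05). Atf3 was 1.13-fold higher in mouse A (adjusted p = 0.0137); it read 11.52 and 11.61 there, 11.60 and 11.50 in B, and 11.27 to 11.34 in C and D. Without mouse C or without mouse D this Atf3 call was lost, at 0.13 and 0.15. In all 2 of 11 (18.2%) were called higher in mouse A, beside 15.7% of all tested probe sets, so that count lies near the background. Both arrays of mouse A lay above the other 6 for 1 of 11 probe sets, Batf3 (9.09%), beside 21.4% of all. For mice C and D this held for 0 of 11, beside 4.54% and 7.09%.

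Mouse A was also called lower for Fos (-0.23), both Jun sets (-0.42 and -0.35) and Batf (-0.20), 4 of 11 (36.4%) beside 11.1%. The Fos and Jun calls rested on mouse B being among the others. With mouse B left out, Fos in mouse A was higher than in C and D by 0.19 (adjusted p = 0.00971), and the Jun sets differed by -0.10 and -0.15, neither past the threshold. Batf remained lower, by -0.13 (adjusted p = 0.0310).

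Mouse C had 0 of 11 called higher, beside 1.96%, and 4 of 11 called lower (36.4%), beside 3.96%: Fos (-0.30), Jun by 1417409_at (-0.36), Batf3 (-0.12) and Atf3 (-0.20). Without mouse B the Fos difference turned to 0.12 (adjusted p = 0.131) and that of Jun shrank to -0.02, while Atf3 (-0.16) and Batf3 (-0.17) still passed. Without mouse A, Batf3 stood at -0.0043 and Atf3 at -0.15, neither past the threshold. The 5 probe sets that the F test called over mice A, C and D were those of Fos, Junb, Jund, Batf3 and Atf3, and 4 of these were also called over all 4 mice.

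**Figure D3:**
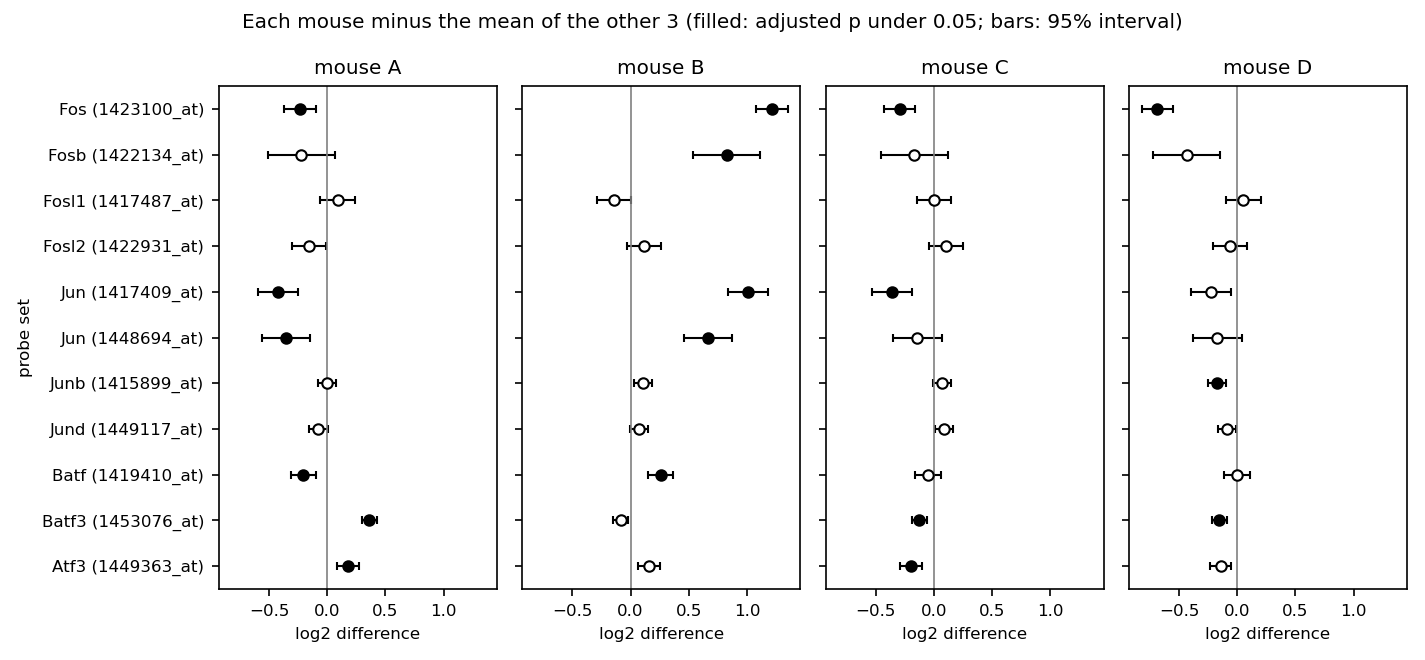
Log2 difference of each mouse from the mean of the other 3 (x axis) for the 11 tested probe sets (y axis), 1 panel per mouse; bars are 95% intervals and filled circles have an adjusted p under 0.05. Fos, Fosb, Jun and Batf are filled to the right in mouse B, and Batf3 and Atf3 in mouse A.

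The rest of the pathway was read from lists in which each gene stands by its highest probe set. Between targets 0 genes passed in any list, as over all 8003 tested genes (0%). Between mice the F test called 24.8% of all tested genes, 17 of the 24 immediate early genes and 14 of the 16 AP-1 targets. The immediate early list had 17 of 24 lower with PD-L1-overexpressing targets and a median of -0.03, beside 3728 of 8003 lower and a median of 0.00. Jdp2, a repressor that dimerises with Jun, was higher in 4 of 4 mice by 0.13 (SE 0.0427) in the mean and did not pass (limma adjusted p = 0.999).

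Upstream of AP-1, 0 of 18 tested genes of the MAP kinase and SRF pathway were called in mouse B in either direction. Of all tested genes 5.06% were called higher and 2.29% lower there. Among 17 other basic leucine zipper factors 2 were higher in mouse B and 0 lower, Jdp2 by 0.44 and the stress factor Atf5 by 0.25. Of 8 AP-1 partners, Irf8 was called higher, by 0.21; Irf4, the main partner of Batf, differed by 0.06 in mouse B and was higher in mouse A by 0.30.

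Other immediate early genes were called higher in mouse B in 14 of 24 cases, beside 5.06% of all tested genes, and 1, Ier3, was lower, beside 2.29%. They included Klf2, a quiescence factor of T cells (1.32), Ppp1r15a, a phosphatase subunit of the stress response (0.68), Dusp1, a MAP kinase phosphatase (0.63), and Egr1 (0.36). Among the Nr4a and Egr genes, which report receptor signalling, Egr1 and Egr2 (0.29) were called higher in mouse B. Nr4a1 (0.04), Nr4a2 (0.01), Nr4a3 (-0.03) and Egr3 (-0.05) were not past the threshold there. In mouse D, where Fos was lowest, 6 of 24 were called lower, beside 3.14%, among them Dusp1 (-0.45) and Ppp1r15a (-0.46), and 1, Btg2, was higher, beside 3.74%. In mouse A 7 of 24 were lower, beside 11.9%, and 2 higher, beside 16.5%; Klf2 was lower there by 1.12 on the log2 scale. In mouse C 5 of 24 were higher and 1 lower, beside 2.22% and 4.15% of all tested genes. For mice A, C and D the mean of the others includes mouse B, where many of these genes were high. The list counts were not taken without mouse B.

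Of 16 tested genes known as AP-1 targets, 3 were lower in mouse B, Csf2 (-0.55), Il3 (-0.51) and Plaur (-0.30), and 1, Ctla4 (0.18), was higher, beside 2.29% and 5.06% of all tested genes. Il2 differed by 0.34 in mouse B, not past the threshold (limma adjusted p = 0.0548), and the median of the 16 was 0.06. In mouse D 9 of 16 were lower and 2 higher, beside 3.14% and 3.74%. In mouse A 6 were higher and 4 lower, beside 16.5% and 11.9%, and in mouse C 5 were higher and 1 lower, beside 2.22% and 4.15%. Of 10 heat shock genes, which respond to handling and protein stress, 4 were higher in mouse B, the chaperones Hspa1a (0.54), Hspa1b (0.50), Hspb1 (0.47) and Dnajb1 (0.26), and 0 lower, beside 5.06% and 2.29%. In mouse D 5 of 10 were lower and 0 higher, beside 3.14% and 3.74%, and in mouse C 3 were lower and 0 higher, beside 4.15% and 2.22%. In mouse A 5 were higher and 1 lower, beside 16.5% and 11.9%. The counts for mice A, C and D are again against a mean that includes mouse B, and they were not taken without it. Hspa1a and Hspa1b are near-identical copies whose probes may not tell them apart.

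**Figure D4:**
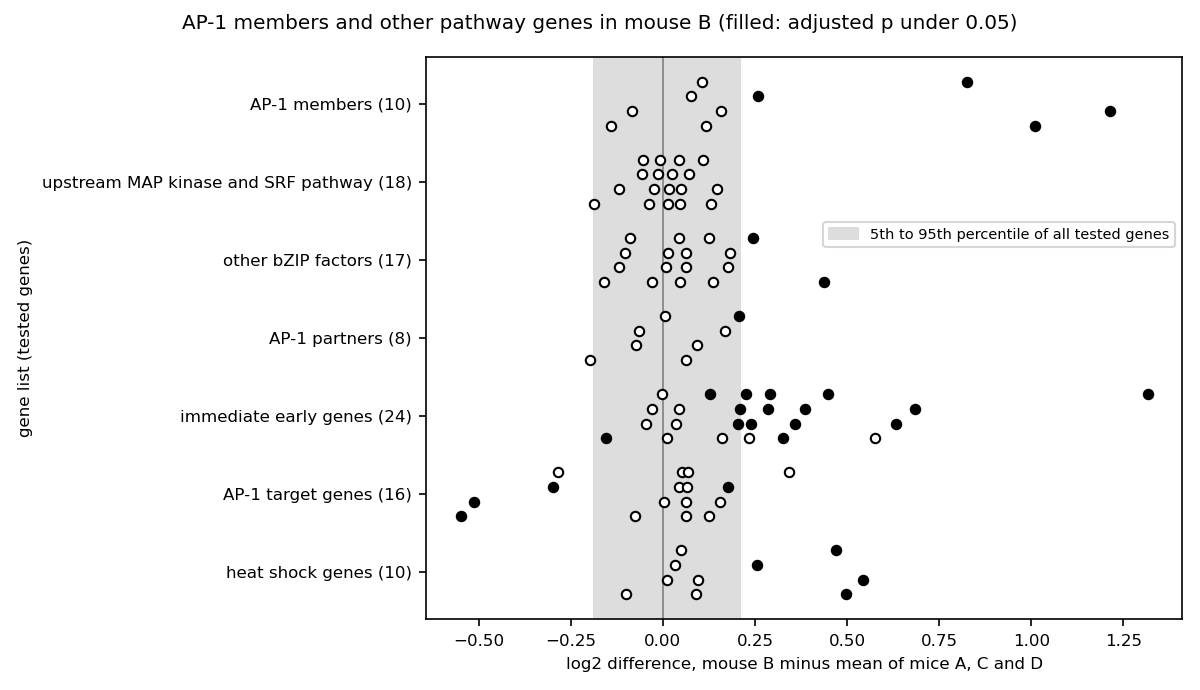
Log2 difference of mouse B from the mean of mice A, C and D (x axis) for the tested genes of each list (y axis, 1 point per gene, filled where the adjusted p was under 0.05); the grey band is the 5th to 95th percentile of all tested genes, -0.19 to 0.21. Fos, Jun and Fosb lie at 1.21, 1.01 and 0.83, Klf2 at 1.32, and no gene of the upstream list is filled.

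Markers of other cells on the arrays of mouse B were read beside these values. The mean of the 7 B cell markers was 6.83 and 6.76 there and 6.61 to 6.97 on the other arrays, and 6 of the 7 were under the filter. The mean of the 8 macrophage and dendritic cell markers was 6.61 and 6.53 in mouse B and 6.49 to 6.83 elsewhere, and that of the 6 CD8 T cell markers 12.46 and 12.45 against 12.29 to 12.47. Averaged over the heat shock genes, mouse B reached 12.60 and 12.69, and mouse A came close below with 12.57 and 12.58. Mice C and D ranged from 12.35 to 12.41. High heat shock values were thus not particular to mouse B. Any part of heat shock in the Fos and Jun levels was not tested.

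The genes most like Fos over the 8 arrays, by Pearson's r among tested genes outside the family, were Vegfa, an angiogenic growth factor (0.988), Rgs11 (0.974), Rlf (0.969), Pwwp3a (0.965) and Ppp1r15a (0.965). The 8 arrays come from 4 animals, and mouse B alone lies high for all of these. The 6 arrays without mouse B were taken as a check chosen after the data were seen. On them Vegfa stood at 0.91, Rgs11 at 0.91, Ppp1r15a at 0.83, Pwwp3a at 0.70 and Rlf at 0.63. They were among the 8 arrays used to pick the genes, here and for Jun and Batf, so these values are not independent of that choice. For Jun the 5 were Icam1, an adhesion molecule (0.970), Trappc6a (0.962), Parp6 (0.959), the ERK phosphatase Dusp6 (0.957) and Dedd (0.957). Without mouse B these fell to between -0.00077 and 0.42, so the likeness to Jun rested on that animal. For Batf they were Klf6 (0.973), Tmem45a (0.972), H2-Q10 (0.963), Cdadc1 (0.959) and Ms4a6d (0.957), and without mouse B they lay between 0.89 and 0.93.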

How the data were processed

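Total RNA of 8 samples, 4 mice by 2 targets, was measured on a 3' expression array, 1 array per sample. The authors deposited log2 values, 1 for each probe set on each array. That they are log2 was judged from their range, and how the authors summarised and normalised the probes is not given in the sources used here. Array medians lay within 0.0501 of each other, and any shift common to most genes would not show. Of 22690 probe sets, 64 controls were left out. Genes were named from the platform annotation, which gave 1 symbol for 20380, several for 691 and none for 1555.

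Probe sets with a mean at or above the 40th percentile (6.87), 13576 in all, were fitted with limma 3.58.1 in R 4.3.3 (lmFit, eBayes with trend), two-sided, with Benjamini-Hochberg adjustment over all of them and a threshold of 0.05. Targets were compared with the mouse as a block. Mice were compared by the moderated F test and each against the mean of the other 3, with the target as covariate. The pairing comes from the series design and the titles; after the group means were subtracted, the arrays of an animal correlated at 0.80, 0.16, 0.60 and 0.63 in A to D. The fit was tested on simulated data. The members and lists were chosen with earlier results of these data known, so counts over them are descriptions. Named were all member probe sets, up to 3 genes per list with the smallest p in each comparison, and the 5 genes most like Fos, Jun and Batf; others named in lists were chosen after their values were seen. The table held 0 columns of other samples.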

Additional observations from a re-analysis of the deposited data

Results flagged for a closer look

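Dixon's ratio, the distance of the most extreme of 4 arrays to the next over the span of all 4, was taken for the 12 member probe sets in both groups. It passed its 95% critical value in 4 of 24 cases, where chance gives about 1 group in 20, or 1.2. Both groups hold the same mice and some genes have more than 1 probe set, so the 24 cases are not independent. The 4 are thus not a measured excess over chance. For Fos with PD-L1-overexpressing targets the extreme array was that of mouse B (0.851; 11.34 against 10.25 for the next array) as it was for both Jun sets with PD-L1-depleted targets (0.898 for 1417409_at and 0.949 for 1448694_at). Mouse A was highest for Batf3 with PD-L1-depleted targets (0.912; 12.12 against 11.78).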

How the results depend on the processing

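The count of 0 called between targets held without the mouse as a replicate block (0), under both other normalisations, the other filters, 1 probe set per gene and both other variance models, and it was 0 to 268 over the fits that left out 1 mouse, 268 without mouse B. No member was called between targets in any of these fits. Leaving out 1 mouse gave 540 to 5375 probe sets differing between mice (3192 with all), lowest without A and highest without B, and 5 to 8 members. Against the others, the same fits gave 2167 to 5444 probe sets in mouse A, 539 to 697 in B, 393 to 2354 in C and 123 to 2587 in D. They gave 1 to 3 members higher and 1 to 4 lower in A, 0 to 2 higher and 2 to 4 lower in C, and 2 to 5 lower in D. eBayes without a trend gave 563 probe sets in B, 435 in C and 422 in D, against 939, 804 and 859, and 0 members lower in C and 1 in D. Quantile normalisation left 1 member lower in C. The stricter filter, at the 60th percentile, left 3 higher in B because it does not test Fosb and the second Jun set. Uncalled target differences changed sign when 1 mouse was left out for Fosl1 (-0.0036 to 0.055), Batf (-0.038 to 0.015), Jun by 1448694_at (-0.15 to 0.023) and Atf3 (-0.012 to 0.052). Fos differed by -0.52 to 0.19 in mouse A and by -0.59 to 0.12 in C. Where no cause is named, it was not tested. The 4 mice and values close to the filter, as for Fosb, limit precision.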
